A study of Mus musculus with 13 samples.

Results

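The genes of the aminoacyl-tRNA synthetases and of 3 proteins that hold several of them together were followed through endoplasmic reticulum (ER) stress in mouse fibroblasts by ribosome footprint profiling. The members were listed by symbol, 38 of the 22406 symbols of the tables, with earlier results of these data known, and all were present. They comprised 20 genes of cytosolic enzymes, 15 of mitochondrial enzymes (symbols ending in 2) and the 3 scaffold genes Aimp1, Aimp2 and Eef1e1. All 38 reached a mean of 2 TPM (the share of a library's footprints that a gene holds per coding length), as did 10432 genes in mouse embryonic fibroblasts (MEFs) and 10117 in NIH3T3 cells.

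Footprints came from PERK WT MEFs, PERK −/− MEFs and NIH3T3 cells, an established mouse embryonic fibroblast line of WT genotype. ER stress was given as thapsigargin (Tg), an inhibitor of the calcium pump of the ER. Both MEF genotypes were left untreated (control) or treated with 1 µM Tg for 1, 2, 5 or 8 h, and NIH3T3 cells were left untreated or treated with 0.2 µM Tg for 2 or 7 h. All cells were harvested without cycloheximide. With 13 conditions and 13 libraries there was no replicate of any, and none of the differences below was tested against replicate spread. PERK −/− MEFs carry the deletion in every library of that genotype, control included. The sources used here do not give the number of MEF isolates behind a genotype, so the genotype and differences between isolates cannot be told apart. The age and sex of the source embryos are not given in the sources used here.

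Aminoacyl-tRNA synthetases attach each amino acid to its tRNA, the step at which the genetic code is read into amino acids. The cytosol and the mitochondria use largely separate sets of enzymes, all encoded in the nucleus. Gars and Kars are exceptions, since each makes the enzyme of both compartments, and mitochondria charge their glutamine tRNA through Ears2 and an amidotransferase and not through Qars. Several cytosolic enzymes sit with Aimp1, Aimp2 and Eef1e1 in the multisynthetase complex. In ER stress, PERK phosphorylates eIF2α, which lowers general initiation and raises translation of ATF4. ATF4 binds C/EBP-ATF response elements as a dimer with C/EBP proteins, and amino acid transporters, amino acid biosynthesis enzymes and cytosolic synthetases are among its known targets.

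Promoter sequence is described first, for the core of the C/EBP-ATF response element, whose letters were chosen with the changes of these genes known. Windows of 300 bases, from 250 before to 50 after the start site, were taken from RefSeq (GRCm38.p6), and the letters TGATGNAA were searched on both strands. The window of Mars was listed as Mars1. A window was given for 13 of the 20 cytosolic, 13 of the 15 mitochondrial and the 3 scaffold genes. Cars, Hars, Lars, Nars, Rars, Vars, Wars, Hars2 and Pars2 had none. The core was found in 5 cytosolic windows, those of Aars, Gars, Iars, Tars and Yars, and in 0 mitochondrial and 0 scaffold windows. It was present in 3.97% of all 32851 windows, in 2.59% of those of 8045 genes expressed in MEFs and in 7.47% of those of 495 genes that rose at least 2-fold at 8 h in WT MEFs. A match describes these letters and is no evidence of binding.

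To show where the core sits, sites of Gars, Iars, Tars and Yars are given in 30 bases each, read on the strand of the gene, with the 8 letters of the match in capitals. In Yars they read as the core itself, and in the other windows as its reverse complement. That of Gars lies at chr6:55037960-55037989 (plus strand), that of Iars at chr13:49682126-49682155 (plus), that of Tars at chr15:11399655-11399684 (minus) and that of Yars at chr4:129189895-129189924 (plus).
Gars: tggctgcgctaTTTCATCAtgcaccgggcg
Iars: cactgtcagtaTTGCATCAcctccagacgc
Tars: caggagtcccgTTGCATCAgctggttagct
Yars: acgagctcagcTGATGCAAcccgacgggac
The first base of the match lay 30 bases before the start site in Gars and 15 before it in Tars. It was base 4 after the start site in Yars and base 8 in Iars. The start site is that of the window, which in Yars lay inside the annotated span of the gene.

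Library depth was 2525029 to 14799515 expected counts in MEFs and 2569965 to 11121006 in NIH3T3 cells, smallest in WT at 2 h and in NIH3T3 at 2 h. Of 7 fibroblast markers, 7 were expressed in both MEF genotypes and 6 in NIH3T3 cells, with summed levels of 5438 to 6324 TPM in WT, 4132 to 6637 in PERK −/− and 3448 to 4935 in NIH3T3. Of 3 epithelial markers 1 was expressed in WT and 2 in PERK −/− MEFs, with sums of 10.4 to 19.8 and 25.4 to 38.04 TPM, and 0 in NIH3T3 cells, where the sum was at most 0.36 and Epcam and Krt19 were at 0. Their part in the results was not tested. The 3 blood and 3 endothelial markers summed to at most 4.49 TPM each, with Hbb-bs at 0 in all cells and Pecam1 at 0 in MEFs. Eif2ak3, which encodes PERK, was at 21.3 CPM (counts as a share of the library total) in the WT control and 10.99 in the PERK −/− control, but at 6.03 and 11.2 TPM, so the scales disagree in direction. The gene values do not separate the deleted part from the rest, so they check no genotype label. Atf4, whose translation depends on phosphorylated eIF2α, was at 34.5 TPM in WT and 487, 551, 569 and 576 at 1, 2, 5 and 8 h, against 41.4 in PERK −/− MEFs and 25.1, 34.2, 60.2 and 58.2.

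In untreated WT MEFs, cytosolic enzymes were the abundant class. Their levels ran from 55.7 TPM (Cars) to 333 (Nars) with a median of 111, and those of the mitochondrial enzymes from 2.70 (Ears2) to 36.2 (Yars2) with a median of 9.31. The 2 ranges did not overlap. Summed over genes, cytosolic enzymes had 14.4 times the TPM of mitochondrial enzymes in WT, 14.1 times in PERK −/− and 13.5 times in NIH3T3 controls. The scaffold genes were at 163 (Aimp1), 245 (Aimp2) and 158 TPM (Eef1e1), within the range of the cytosolic enzymes as a whole.

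**Figure D1:**
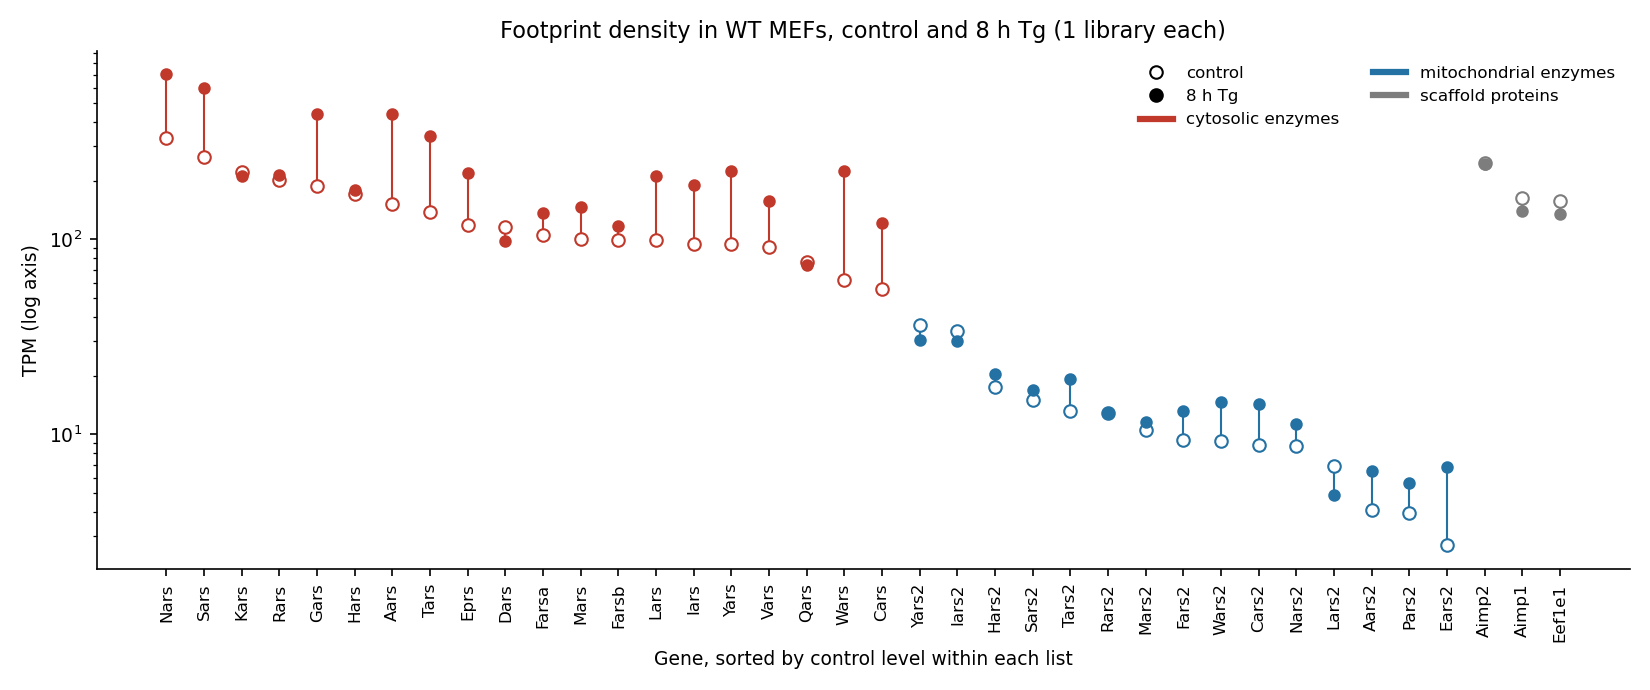
Footprint density in WT MEFs as TPM on a log axis, control (open) and 8 h of Tg (filled), 1 library each, with genes sorted by control level within each list. The 20 cytosolic enzymes start between 55.7 and 333 TPM, the 15 mitochondrial enzymes between 2.70 and 36.2, and the longest upward lines are those of Wars, Aars and, from the lowest start, Ears2 (2.70 to 6.79 TPM).

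Before Tg, PERK −/− and WT MEFs differed little in these genes. The median log2 difference of PERK −/− from WT was -0.11 for cytosolic enzymes, -0.15 for mitochondrial enzymes and 0.08 over all expressed genes. None of the 20 cytosolic enzymes was 2-fold apart, where 6.04% of expressed genes were at least 2-fold higher and 1.97% at least 2-fold lower in PERK −/−. Lars, the leucine enzyme, stood furthest, at 99.3 TPM in WT and 64.9 in PERK −/−, a difference of -0.61. Nars2, the mitochondrial asparagine enzyme, was the single member 2-fold apart, at 8.74 TPM in WT and 3.38 in PERK −/−, on 121 and 32 counts, a difference of -1.13 with the lower value raised to 4 TPM as described below.

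In WT MEFs, part of the cytosolic enzymes gained footprints from 2 h of Tg on. Over these later times the medians of the mitochondrial enzymes and the scaffold genes moved less. A change is given on the log2 scale of TPM against the control of the same cells, with values under 4 TPM raised to 4, and "rose" or "fell" is used for at least 2-fold. The median change of the cytosolic enzymes was 0.05, 0.53, 0.89 and 0.93 in order of time, and that of all expressed genes stayed at 0 to 0.01. No cytosolic enzyme rose at 1 h, where 4.33% of expressed genes did and 2.29% fell. At 2 h, 3 of 20 rose against 5.66% of expressed genes (4.01% fell), namely Aars, Tars and Yars. At 5 h, 9 of 20 rose against 5.86% (3.55% fell), and at 8 h again 9 of 20 against 6.45% (3.87% fell). None fell at any time. The 2 h count rested on changes of 1.01 to 1.07, just past the threshold, and was 0 on TMM-scaled counts, and 1 on DESeq2-scaled counts or after removal of a trend on GC content.

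**Figure D2:**
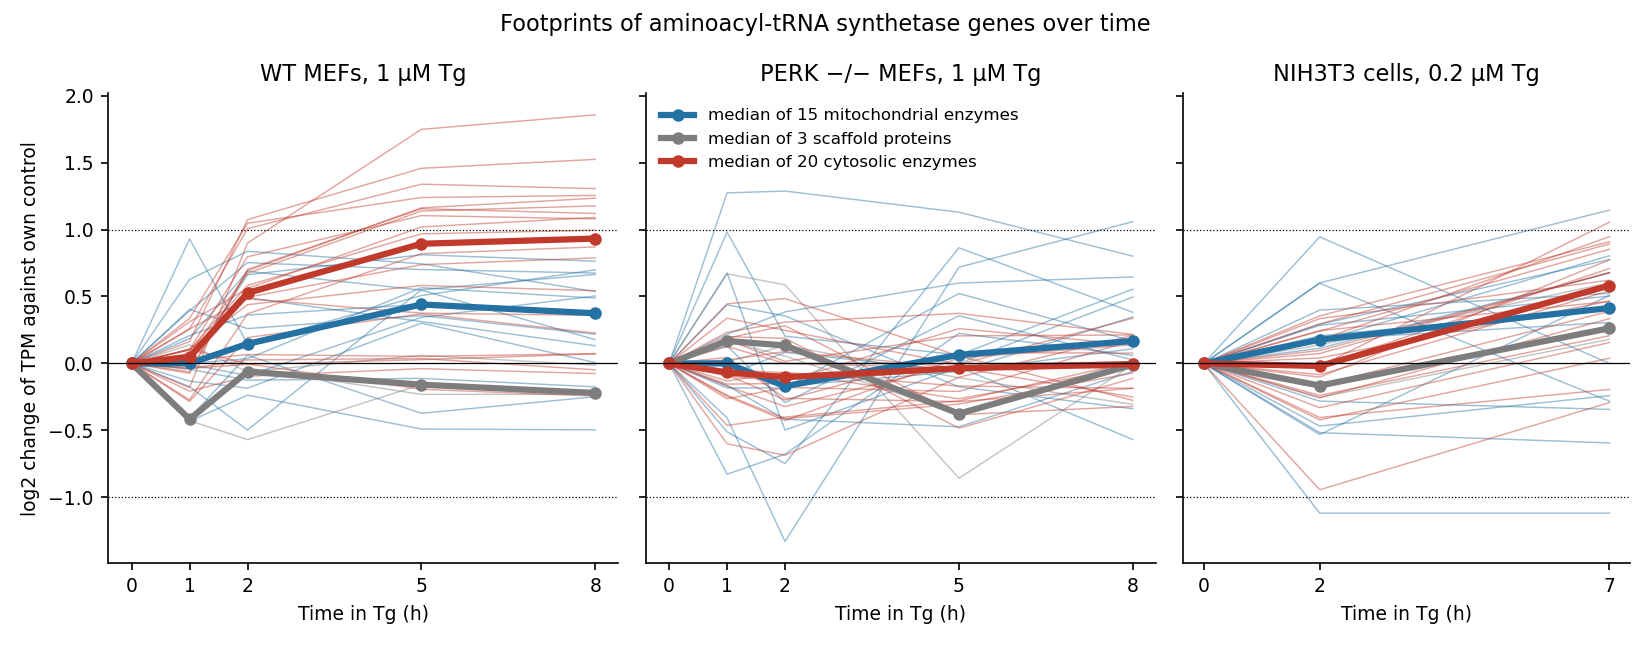
Log2 change of TPM against the control of the same cells by time in Tg, with 1 thin line per gene, thick lines for the median of each list and dotted lines at 2-fold. The cytosolic median climbs to 0.93 at 8 h in WT MEFs, stays between -0.10 and -0.01 in PERK −/− MEFs (up to 0.11 with TMM factors), and ends at 0.58 in NIH3T3 cells after 7 h.

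The largest change was that of Wars, the tryptophan enzyme (chromosome 12, 108860030 to 108894175 in GRCm38.p6). Wars had 62.1 TPM in the WT control and 54.8, 116, 209 and 225 at 1, 2, 5 and 8 h. Its footprint density before Tg was the lowest of the cytosolic enzymes but that of Cars, and at 8 h its level was close to that of Yars. The change at 8 h was 1.86, with an exact 95% interval of 1.77 to 1.97 from its expected counts. Intervals are of counts per library total and cover counting error only.

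Aars, which charges alanine (chromosome 8, 111027778 to 111055569), went from 152 TPM to 171, 320.5, 418 and 438, and its change at 8 h was 1.52 (1.48 to 1.57). Tars, the threonine enzyme (chromosome 15, 11383663 to 11399658), went from 138 to 164, 276, 348 and 340.0 TPM. It changed by 1.31 at 8 h (1.25 to 1.36). The promoter core is in both windows, and both had reached 2-fold at 2 h.

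Yars charges tyrosine (chromosome 4, 129189734 to 129219240), and was at 94.4 TPM in the control and 119, 195, 223 and 225 under Tg, a change of 1.25 at 8 h (1.18 to 1.33). Gars, the glycine enzyme of both compartments (chromosome 6, 55038001 to 55079504), was at 188 TPM and then 178, 303, 419 and 441. Its change at 8 h was 1.23 (1.19 to 1.28). Sars, the serine enzyme (chromosome 3, 108424864 to 108445259), was at 265 TPM and then 279, 422, 582 and 598, a change of 1.18 (1.13 to 1.23). The intervals of Yars, Gars and Sars overlapped, so the order among them is within counting error.

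Cars (cysteine), Lars (leucine) and Nars (asparagine) also rose at 8 h, by 1.12, 1.09 and 1.08. Iars, the isoleucine enzyme, whose window holds the core, stood just under the threshold at 0.99, from 95.02 to 189 TPM. Eprs, a single protein that charges glutamate and proline, was at 0.87, Vars (valine) at 0.79 and Mars (methionine) at 0.54. The annotated span of Mars overlaps that of Ddit3, which went from 13.8 to 579.8 TPM, but counting was over coding sequences and Mars shared no stretch of 28 nt with another gene there.

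The other end of the order held enzymes whose TPM moved little or downward. Dars, which charges aspartate, was at 116 TPM in the WT control and 125, 116, 102 and 98.4 under Tg, and its change at 8 h was -0.24 (-0.33 to -0.15), which turned to 0.08 after removal of the GC trend. Kars, the lysine enzyme of both compartments, was at 222, 192, 207, 216 and 210.3 TPM in control, 1, 2, 5 and 8 h, a change of -0.08 (-0.13 to -0.02). Qars, the glutamine enzyme, was at 76.8, 74.8, 78.2, 78.8 and 74.3 TPM, a change of -0.05 (-0.13 to 0.04). In these 3 enzymes no time point lay further from the control than the 8 h value of Dars.

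Hars, the histidine enzyme, was at 171, 167, 171, 175 and 180.2 TPM, and its change at 8 h was 0.07 (0.00 to 0.14). Rars, the arginine enzyme, stood beside it at 0.07, and both were at -0.02 with TMM factors. The 2 subunits of the phenylalanine enzyme, which work as a pair, changed by 0.36 (Farsa) and 0.23 (Farsb). Kars, Rars, Hars and Sars were among the most abundant enzymes before Tg, so a high starting level was found among enzymes that rose and among those that did not.

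Late time points resembled each other closely. Between 5 and 8 h in WT, the log2 differences of the 20 cytosolic enzymes had an SD of 0.06, and the largest was 0.14 (Farsb). Between 1 and 2 h their median step was 0.48, and between 2 and 5 h it was 0.28. Of the 20, 11 were highest at 8 h, 7 at 5 h, and 1 each at 2 h (Farsa) and 1 h (Dars). Their summed TPM was 1.03, 1.46, 1.79 and 1.81 times the control at 1, 2, 5 and 8 h, and the ratio of summed cytosolic to mitochondrial TPM went from 14.4 to 23.0.

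Cytosolic enzymes of the multisynthetase complex had a lower median in WT at 8 h than those outside it, with overlapping ranges. Of the 12 enzymes outside the complex 8 rose at 8 h, with a median of 1.15 and a range of 0.07 (Hars) to 1.86 (Wars), and of the 8 enzymes within it 1 rose (Lars), with a median of 0.31 and a range of -0.24 (Dars) to 1.09. Expressed genes had 6.45% that rose. In NIH3T3 cells at 7 h the medians were 0.50 within the complex and 0.65 outside it. The catalytic classes stood closer together in WT at 8 h. The median was 0.99 for 9 class I enzymes and 0.72 for 10 class II enzymes, and 4 and 5 of them rose. Eprs, which carries an enzyme of each class, was left out of that split.

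At 8 h the scaffold genes had changes near those of the bound enzymes that moved least, Dars, Kars, Qars and Rars. At 1 h Aimp1 (-0.43) and Eef1e1 (-0.42) lay below every cytosolic enzyme, the lowest being Farsb at -0.28, and Aimp2 was at 0.14. Aimp1 was also below them all at 2 h, at -0.57, where the lowest was Kars at -0.10. Aimp1 was at 163 TPM in the WT control and 121, 110.0, 146 and 140.1 under Tg, a change of -0.22 at 8 h (-0.32 to -0.12). Aimp2 was at 245, 270.2, 235, 256 and 243 TPM, a change of -0.01 (-0.08 to 0.08). Eef1e1, which encodes the smallest of the 3, was at 158, 118, 154, 134 and 134 TPM, a change of -0.23 (-0.38 to -0.09). The median over the 3 was -0.42, -0.06, -0.16 and -0.22 at 1, 2, 5 and 8 h, below the cytosolic median at each time, and none rose or fell.

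Mitochondrial enzymes were measured on far fewer counts, and their medians lay below those of the cytosolic enzymes. Their median change in WT was 0.00, 0.15, 0.44 and 0.37 at 1, 2, 5 and 8 h, and 0 of 15 rose or fell by TPM at any time. With 15 genes and 4.33 to 6.45% of expressed genes rising, that count is near the background. Ears2, which charges glutamate, was at 2.70 TPM in the control and 3.68, 6.33, 7.02 and 6.79 under Tg, a change of 0.76 at 8 h with the control raised to 4 TPM. On expected counts, 48 in the control and 122 at 8 h, it was 1.44 (0.95 to 1.96). Cars2, the cysteine enzyme, was at 8.81 TPM and then 16.8, 9.75, 12.5 and 14.3, a change of 0.70 at 8 h, and Aars2, the alanine enzyme, was at 4.09 and then 5.37, 6.89, 6.65 and 6.53, a change of 0.68.

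At the low end stood Lars2 (leucine), Yars2 (tyrosine) and Iars2 (isoleucine). Lars2 was at 6.88 TPM in the WT control and 5.10, 5.84, 4.90 and 4.88 under Tg, a change of -0.50 at 8 h. Yars2 was at 36.2, 27.3, 37.8, 27.98 and 30.5 TPM, a change of -0.25, and Iars2 was at 34.1, 33.1, 31.2, 31.5 and 30.2 TPM, a change of -0.17. Yars2 and Iars2 were the most abundant mitochondrial enzymes. The other 9 changed by 0.01 (Rars2) to 0.66 (Wars2) at 8 h.

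TPM and counts parted for Sars2, the mitochondrial serine enzyme. By TPM it changed by 0.18 at 8 h in WT, from 15.02 to 16.99 TPM. By counts per library total it changed by 1.17, from 139 counts to 293. In PERK −/− MEFs at 8 h it was the reverse, 1.06 by TPM and 0.33 by counts. Between NIH3T3 control and 7 h it was 1.14 by TPM and 0.28 by counts. By counts, Ears2 and Sars2 would be 2 mitochondrial enzymes past 2-fold in WT at 8 h, and calls on Sars2 by TPM are given below with its counts.

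Enzymes for the same amino acid were then set side by side, with Eprs in 2 of the pairs (Ears2 and Pars2). In WT at 8 h the cytosolic enzyme changed more by TPM in 13 of 15 pairs, with a median difference of 0.71. By counts per library total, Ears2 changed more than Eprs (1.44 and 0.85), and Sars and Sars2 were level (1.18 and 1.17). The widest gaps were those of Lars over Lars2 (1.59) and Yars over Yars2 (1.503), and the 2 pairs in the other direction were Hars with Hars2 (-0.15) and Farsa with Fars2 (-0.14), both small. The cytosolic interval lay wholly above the mitochondrial one in 8 pairs and wholly below it in 1, Eprs with Ears2. Before Tg, the cytosolic enzyme of a pair had 2.61 to 44.2 times the TPM of its mitochondrial counterpart, with a median of 11.4.

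In PERK −/− MEFs, the cytosolic enzymes stayed near their controls. The median change was -0.07, -0.10, -0.04 and -0.01 in order of time, beside -0.06, -0.11, 0.00 and 0.04 over all expressed genes. The first 2 medians were 0.07 and 0.11 on TMM-scaled counts, and 0.05 and 0.08 on DESeq2-scaled ones, so their sign depended on the scaling. In the TPM values 0 of 20 rose or fell at any time. Among expressed genes, the shares that rose were 0.719%, 0.623%, 3.26% and 3.28% in order of time, and the shares that fell were 3.38%, 5.78%, 4.77% and 2.73%. Summed cytosolic TPM was 0.963, 0.945, 0.939 and 0.997 times the control. The SD of the differences between 5 and 8 h was 0.20, above the 0.06 of WT. Over all expressed genes it was also larger in PERK −/− MEFs, at 0.54 against 0.19 in WT.

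The enzymes that rose most in WT showed no such change without PERK. Wars was at 47.2 TPM in the PERK −/− control and 55.5, 58.5, 61.2 and 54.9 under Tg, a change of 0.22 at 8 h (0.04 to 0.40). Tars was at 105, 133, 125, 105 and 133 TPM, and its 0.34 was the highest change of a cytosolic enzyme at 8 h. Farsb was the lowest, at 73.6, 83.9, 89.6, 56.5 and 59.0 TPM, a change of -0.32.

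Early in Tg, single enzymes of PERK −/− MEFs moved in opposite directions. Aars went from 176 TPM to 116 and 110 at 1 and 2 h, changes of -0.60 and -0.69, and was back at 164 and 204 at 5 and 8 h. Cars (-0.46 and -0.40), Mars (-0.25 and -0.43) and Yars (-0.24 and -0.41) were also below their controls at 1 and 2 h. Dars went the other way, from 127 TPM to 172 and 177, changes of 0.45 and 0.48. None of these reached 2-fold. The lowest count among the 5 genes in these 3 libraries was 954, that of Cars in the control. With TMM factors the 2 h changes of Aars, Mars and Dars were -0.46, -0.21 and 0.70, in the same directions.

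The genotypes were compared by whether the counting intervals of their changes overlapped. At 8 h the WT interval lay above that of PERK −/− for 17 of 20 cytosolic enzymes, all but Dars, Hars and Qars, where this held for 23.2% of expressed genes. It did so for 3 of 15 mitochondrial enzymes (Cars2, Ears2 and Sars2) and for 0 of 3 scaffold genes. Kars and Rars, which had not risen in WT, are among the 17, and their changes in PERK −/− were -0.25 and -0.11. The mitochondrial enzyme Iars2 had the reverse relation, as did 21.1% of expressed genes. At 1 h the WT interval was above for 7 cytosolic enzymes and below for 6, where the shares of expressed genes were 24.4% and 15.8%. At 2 h it was above for 14 and below for 3 (27.4% and 17.1%), and at 5 h above for 15 and below for 1, Dars (25.6% and 19.8%).

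**Figure D3:**
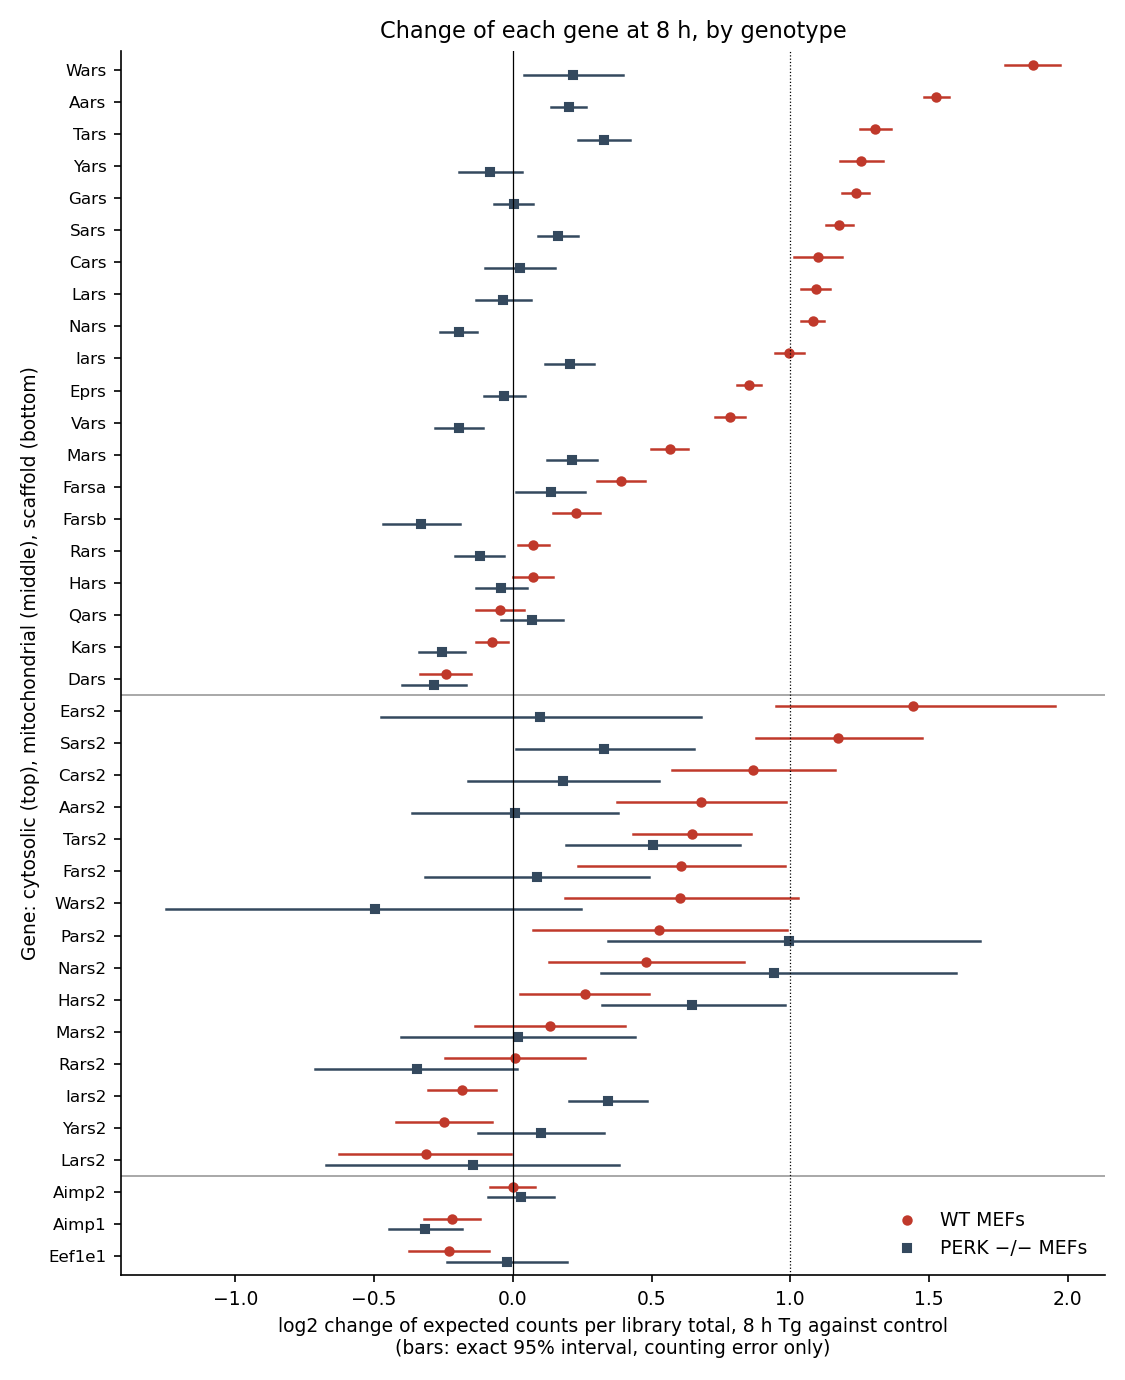
Log2 change of expected counts per library total at 8 h of Tg in WT (circles) and PERK −/− MEFs (squares), with exact 95% intervals that cover counting error only, for the 20 cytosolic enzymes (top), 15 mitochondrial enzymes (middle) and 3 scaffold genes (bottom). In 17 of the 20 cytosolic enzymes the WT interval lies to the right of the PERK −/− interval, and the intervals of the mitochondrial enzymes are wide and mostly overlap.

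Mitochondrial enzymes had a median change of 0.00, -0.17, 0.06 and 0.17 in PERK −/− MEFs. Nars2 rose at 1, 2 and 5 h, from 3.38 TPM to 9.67, 9.76 and 8.75, and was at 6.97 at 8 h, where counts went from 32 to 68. The levels at 1, 2 and 5 h lay within the 8.74 to 11.9 TPM of the WT libraries, and the control lay below them. At 5 h its change by counts was 0.58 (-0.07 to 1.25), from 32 counts to 57. Sars2 fell at 2 h, from 16.6 TPM to 6.61 (-1.33 by TPM and -0.99 by counts), and rose at 8 h by TPM alone. Wars2, the tryptophan enzyme, had the lowest change at 8 h, -0.57, on 37 and 29 counts. In pairs at 8 h, the cytosolic enzyme changed more by TPM in 4 of 15, with a median difference of -0.18. By counts, Farsa (0.14) and Lars (-0.03) also lay above Fars2 (0.09) and Lars2 (-0.14).

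Among the scaffold genes, Eef1e1 moved most in PERK −/− MEFs, at 108 TPM in the control and 171, 162, 59.4 and 107 under Tg. Aimp1 was at 157, 158, 172, 145 and 127 TPM, and Aimp2 at 198, 223, 206, 153 and 201. Neither reached 2-fold, nor did Eef1e1.

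NIH3T3 cells were given a lower dose for other times, so their values are set beside those of MEFs without a comparison of size, and the 2 tables were analysed separately. The cytosolic medians were -0.02 (2 h, 0.10 with TMM factors) and 0.58 (7 h), beside -0.13 and 0.00 over all expressed genes. At 2 h 0 of 20 rose or fell, where 5.76% of expressed genes rose and 3.76% fell. At 7 h 1 of 20 rose, where 7.01% of expressed genes rose and 8.06% fell. Above their control lay 18 of 20, and 4455 of the 10117 expressed genes. The share past 2-fold was thus near that of expressed genes, while the median was above theirs. Past 1.5-fold were 10 of 20, a threshold at which no share of expressed genes was computed. The count at 7 h was 4 with DESeq2 size factors and 2 with TMM factors or counts thinned to the smallest library. Atf4 went from 178 TPM to 1491 and then 527, so its highest value fell at the time when the cytosolic median was near 0.

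Wars led again, with levels of 76.8, 75.7 and 160 TPM in the 3 libraries, a change of 1.05 (0.93 to 1.15). Nars followed at 249, 281 and 481 TPM (0.95), then Rars at 139, 178 and 261 (0.91), Lars at 88.0, 108 and 163 (0.89) and Farsa at 99.2, 117 and 179 (0.85). Rars and Farsa had changed by 0.07 and 0.36 in WT MEFs at 8 h. Gars, at 1.23 in those MEFs, was at 345, 274 and 384 TPM in NIH3T3 cells, a change of 0.16. Vars was the lowest, at 60.4, 31.4 and 49.3 TPM, a change of -0.94 at 2 h and -0.29 at 7 h.

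The 9 cytosolic enzymes that rose in WT MEFs at 8 h were also followed in the libraries that had no part in choosing them. In NIH3T3 cells at 7 h their median change was 0.68, from 0.16 (Gars) to 1.05 (Wars), and that of the other 11 was 0.46, from -0.29 (Vars) to 0.91 (Rars). The 2 ranges overlapped over most of their length. In PERK −/− MEFs at 8 h the medians were 0.01 for the 9 and -0.03 for the 11.

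**Figure D4:**
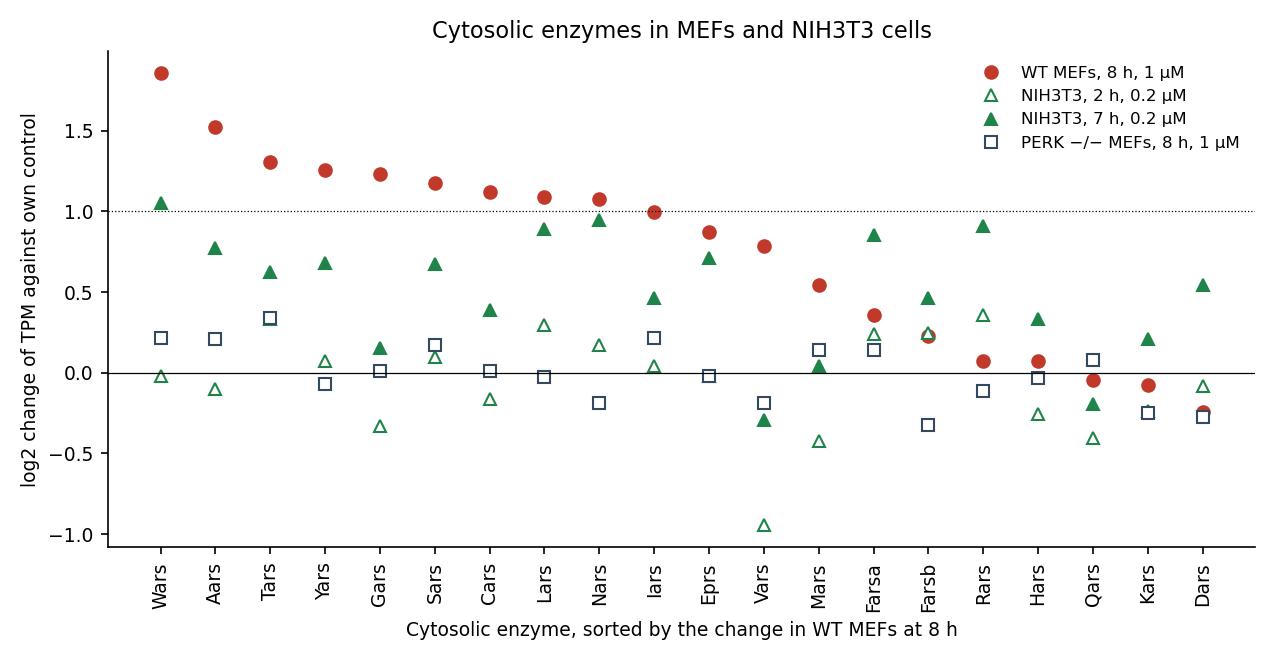
Log2 change of TPM against the control of the same cells for the 20 cytosolic enzymes, sorted by the change in WT MEFs at 8 h (filled circles), with PERK −/− MEFs at 8 h (open squares) and NIH3T3 cells at 2 h (open triangles) and 7 h (filled triangles). PERK −/− values lie between -0.32 and 0.34, and NIH3T3 values at 7 h between -0.29 (Vars) and 1.05 (Wars), with Rars and Farsa high.

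Before Tg, the levels of the 9 enzymes differed in both directions between NIH3T3 cells and WT MEFs, across tables that were normalised separately. Aars was at 292 TPM there and 152 in the WT MEF control, Gars at 345 and 188, Yars at 195 and 94.4, Cars at 102 and 55.7, Tars at 196 and 138, and Wars at 76.8 and 62.1. Sars (242 and 265), Nars (249 and 333) and Lars (88.0 and 99.3) were lower in NIH3T3 cells. Asns, the asparagine synthetase gene and a known ATF4 target, was at 446 and 67.5 TPM.

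Mitochondrial enzymes of NIH3T3 cells had a median change of 0.18 at 2 h and 0.41 at 7 h. Aars2 fell at both times, from 8.68 TPM to 3.94 and 3.99, on 325, 37 and 73 counts, a change of -1.12 with the treated values raised to 4 TPM, while cytosolic Aars went from 292 to 272 and 499.7 TPM. Sars2 rose at 7 h by TPM (1.14) and not by counts (0.28). Pars2, the proline enzyme, was at 3.85, 7.70 and 1.35 TPM, which gave no change at 7 h with both values raised to 4 TPM. Its counts went from 71 to 13, a change of -1.50. The scaffold genes had medians of -0.16 and 0.26 at these times. The cytosolic enzyme changed more by TPM in 12 of 15 pairs at 7 h, with a median difference of 0.34. By counts, Sars (0.68) and Tars (0.62) also lay above Sars2 (0.28) and Tars2 (0.55).

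Among cytosolic enzymes with a window, those with the promoter core had the higher median change in WT MEFs. At 8 h the 5 with the core changed by 0.99 (Iars) to 1.52 (Aars), with a median of 1.25, and the 8 without it by -0.24 (Dars) to 1.18 (Sars), with a median of 0.29. Only Sars among the 8 reached into the range of the 5. Of the 9 enzymes that rose at 8 h, 4 had the core, Sars had a window without it, and Cars, Lars, Nars and Wars had no window. With the stricter letters TGATGCAA, 4 enzymes had a median of 1.28. Gars then joined those without, which ran from -0.24 to 1.23 with a median of 0.36. In NIH3T3 cells at 7 h the 5 with TGATGNAA changed by 0.16 (Gars) to 0.77 (Aars). The 8 without it changed there by -0.19 (Qars) to 0.85 (Farsa), so the ranges overlapped. The counts are small, and the letters were chosen with the changes known.

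**Figure D5:**
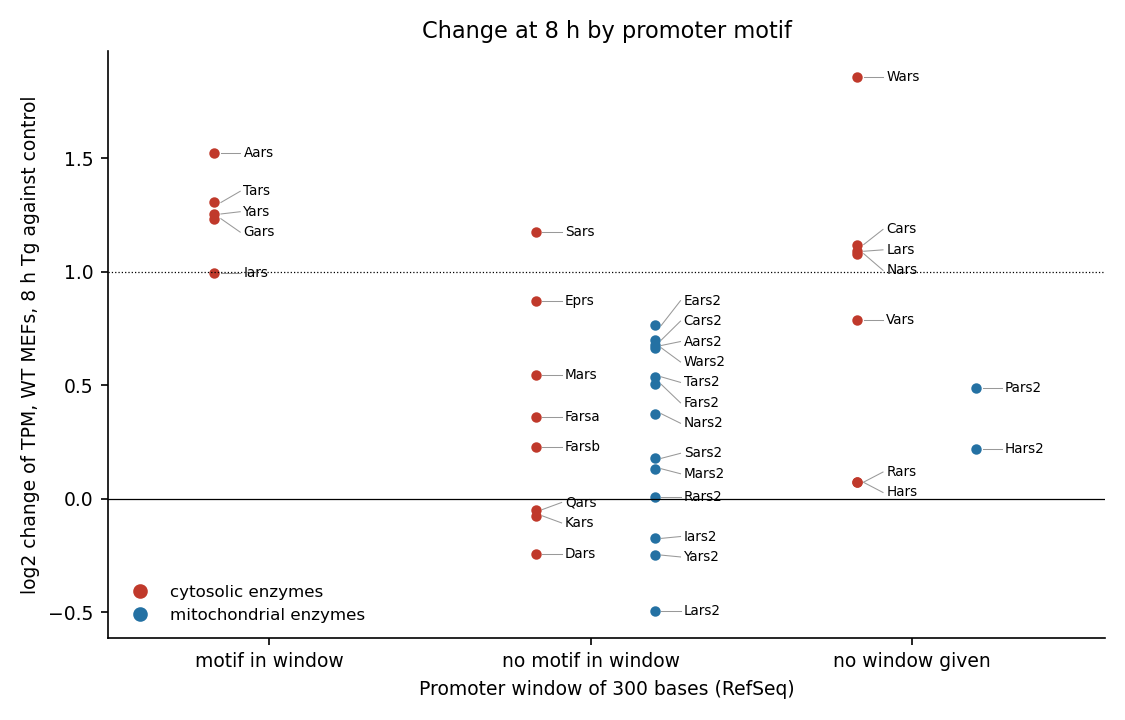
Log2 change of TPM in WT MEFs at 8 h of Tg for cytosolic and mitochondrial enzymes, by whether the RefSeq promoter window of 300 bases holds TGATGNAA on either strand. The 5 cytosolic enzymes with the core lie between 0.99 and 1.52, and the 8 without it spread from -0.24 to 1.18.

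Other genes of tRNA charging and handling had medians below those of the cytosolic enzymes in WT at each time. The list held 17 genes expressed in MEFs, among them the amidotransferase subunits Qrsl1, Gatb and Gatc, the CCA-adding enzyme Trnt1 and the peptidyl-tRNA hydrolase Ptrh2. Their median in WT was -0.07, 0.28, 0.23 and 0.19 at 1, 2, 5 and 8 h. Xpot, the exporter of tRNA from the nucleus, was the single one to rise at 8 h, from 37.5 TPM to 27.0, 50.2, 74.1 and 82.3, a change of 1.13 (0.99 with TMM factors). Gatc rose at 5 h (1.03), and none fell in WT. These are 1 of 17 at 5 h and 1 of 17 at 8 h, near the 5.86% and 6.45% of expressed genes.

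In PERK −/− MEFs Xpot was at 34.3, 34.1, 36.8, 31.8 and 39.7 TPM. None of the 17 rose at any time, where 0.623% to 3.28% of expressed genes did. Their medians were -0.24, -0.31, -0.36 and 0.04 in order of time, so the first 3 lay further from 0 than those of the cytosolic enzymes. Prorsd1 reached the 2-fold limit downward at 1 h by TPM, but its counts of 29 and 50 gave a change of 0.20 per library total, in the other direction. Dtd1, a D-aminoacyl-tRNA deacylase, fell at 8 h (-1.35), from 72 counts to 31. Of expressed genes, 3.38% fell at 1 h and 2.73% at 8 h. In NIH3T3 cells, where 16 were expressed, Trnt1 and Pstk rose at 7 h and none fell. Of expressed genes, 7.01% rose and 8.06% fell. Per library total their changes of 1.23 and 1.17 were 0.73 and 0.90.

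Reads shared between members and other genes were looked for in the coding sequences of GENCODE. None of the stretches of 28 nt in the longest coding sequence of each of the 38 members occurred in the coding sequence of another gene, but retained footprints could be as short as 22 nt. At 22 nt, Hars and Hars2 shared 7 stretches (0.46% and 0.47% of theirs), and Eprs, Lars, Rars and Iars2 shared 1 to 4 with genes that are no members, at most 0.11% of theirs.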

How the data were processed

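Ribosome footprints of 13 libraries were analysed, 1 per condition. The authors retained reads of 22 to 34 nt and discarded those that STAR placed on rRNA or tRNA. Bowtie2 then aligned the remainder to mm10 RefSeq coding regions, shortened by 30 nt on both sides, and RSEM quantified genes, without transcripts shorter than 100 nt. RSEM's expected counts, as the authors deposited them, were whole numbers with no scaling among libraries. The TPM values, as deposited by the authors, were scaled by RSEM within each library, so a change is relative to all other genes. Versions of these tools are not given in the sources used here.

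The MEF and NIH3T3 tables were analysed separately, over genes whose TPM averaged 2 or more. A floor of 4 TPM was set, changes were taken from the untreated to the Tg library of the same cells, and at least 2-fold was called a change. For each gene a 95% interval (exact Clopper-Pearson, conditional on the summed counts) was computed for the change in counts per library total. Footprint reads carry no molecular identifiers, so intervals cover counting error only. Groups came from the labels, and doses from the methods of the study.

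The members and lists were chosen with earlier results of these data known. Values in every library are given for the 6 highest and 4 lowest cytosolic enzymes at 8 h in WT among those with at least 50 counts in every WT library, for the 3 highest and 3 lowest mitochondrial enzymes with at least 20, for the scaffold genes, and for members past 2-fold or at either end in PERK −/− and NIH3T3 cells. Other genes singled out were chosen after their values were seen.

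As alternatives, the floor was set to 1 TPM or replaced by a pseudocount of 1, and the filter to a mean of 5 TPM or none. Others were TMM factors, DESeq2 size factors, counts per library total, thinned counts, removal of a lowess trend on GC content (fraction 0.3), other thresholds, and the cytosolic list without Gars, Kars and Qars. In the settings on counts, 0.5 was added to each count. The 2-fold rule on counts and the counting interval were tested on simulated counts with counting error alone. The TPM values and their floor were not part of that test, and genes with few counts were not assessed. Software comprised edgeR 4.0.16 (for TMM) and DESeq2 1.42.0 under R 4.3.3, and scipy 1.17.1, numpy 2.4.6, statsmodels 0.14.6, pandas 2.3.3 and matplotlib 3.10.9 under Python 3.11.15. Promoters came from RefSeq and coding sequences from GENCODE, both of GRCm38, the assembly of mm10. An alignment of the paired proteins was planned and not run, and shared stretches of coding sequence were counted in its place, at 28 nt and, added later, at 22 nt. Some items are not reported here.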

Additional observations from a re-analysis of the deposited data

Results flagged for a closer look

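Some members changed in opposite directions in WT and PERK −/− MEFs at the same time of Tg, with counting intervals on opposite sides of 0 and the log2 changes of TPM at least 1 apart. With 1 library per genotype and time, these differences were not tested.

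At 1 h, the difference of WT from PERK −/− was 1.76 for Cars2 (0.93 in WT and -0.83 in PERK −/−, on 90 to 156 counts) and -1.09 for Eef1e1 (-0.42 and 0.67). At 2 h it was 1.76 for Aars (1.07 and -0.69), 1.46 for Yars, 1.10 for Cars, 1.01 for Gars, and 2.02 for Sars2, whose values by TPM and by counts parted elsewhere. At 5 h it was 1.56 for Aars, 1.54 for Yars, 1.44 for Cars, 1.35 for Sars, 1.28 for Lars, 1.27 for Nars, 1.02 for Vars and 1.17 for Aars2, the last on 101 counts in PERK −/− MEFs. At 8 h it was 1.26 for Nars (1.08 and -0.19). Of the 5 members with opposite directions at 8 h, Nars was the single one this far apart, and of the 9 at 5 h 8 were. The share of expressed genes that met the same rule was not computed, so these counts cannot be called particular to the members. At 5 h the WT interval lay wholly above that of PERK −/− for 25.6% of expressed genes and wholly below it for 19.8%. With TMM factors the differences of Cars (0.74) and Gars (0.72) at 2 h and of Vars (0.88) and Aars2 (0.98) at 5 h were under 1, so 12 of the 16 stayed this far apart, and 13 did on counts per library total. These values were added after the data were seen.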

How the results depend on the processing

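No paired analysis was possible because each condition was 1 library, and no replicate could be left out for the same reason. The median of the cytosolic enzymes in WT at 8 h, 0.93, was 0.82 with DESeq2 size factors, 0.83 with TMM factors and 1.05 without the GC trend, the ends of its range, and the 9 that rose were 6, 7 and 11, or 12 past 1.5-fold. Of the medians under alternatives 189 stayed within the 95% order-statistic interval of the median over members. The exception was the cytosolic enzymes in PERK −/− MEFs at 2 h with TMM factors (0.11 in place of -0.10). There the median of all genes went from -0.11 to 0.03. That interval reflects the spread among members, which are not replicates. For cytosolic enzymes in WT at 8 h it ran from 0.23 (Farsb) to 1.18 (Sars), so staying within it is a weak check. Cytosolic enzymes that rose at 2 h in WT were 3, but 0 with TMM factors, 1 with DESeq2 size factors or without the GC trend, 8 past 1.5-fold and 0 past 3-fold. Past 3-fold there was 1 at 5 h and 1 at 8 h (Wars). In NIH3T3 at 7 h, 1 rose, but 2 with TMM factors or thinned counts, 4 with DESeq2 size factors, 10 past 1.5-fold and 0 past 3-fold. Counts of mitochondrial enzymes past 2-fold also depended on the settings. In WT they were 0 at each time, but 2 past 1.5-fold and 3 with thinned counts at 1 h, 1 or 2 under 5 settings at 2 h and 4 past 1.5-fold, 1 or 2 under 6 settings at 5 h and 3 past 1.5-fold, and 1 to 3 under 6 settings at 8 h and 4 past 1.5-fold. In PERK −/− MEFs the count was 1 at 1 h (2 without the GC trend, 4 past 1.5-fold, 0 past 3-fold), 2 at 2 h (1 on TMM factors, DESeq2 size factors or library totals, 4 and 0 at the other thresholds), 1 at 5 h and 1 at 8 h (both 0 on those 3 count scales and past 3-fold, 4 and 3 past 1.5-fold, and 2 at 8 h with a floor of 1 TPM). In NIH3T3 it was 1 at 2 h (2 with a floor of 1 TPM, TMM factors, library totals or thinned counts, 0 with a pseudocount or past 3-fold, 4 past 1.5-fold) and 2 at 7 h (6 and 0 at the other thresholds). The cause of these differences was not tested. Shares of expressed genes were not computed for these settings. No member's called change turned its direction under the alternatives run. Among the other tRNA genes, whose settings were added after the data were seen, the fall of Prorsd1 in PERK −/− MEFs at 1 h turned to 0.31 with TMM factors, 0.29 with DESeq2 size factors, 0.20 on library totals and 0.00 with thinned counts. The median of all genes lay over 0.1 from 0 in PERK −/− MEFs at 2 h (-0.11) and NIH3T3 at 2 h (-0.13), and with a floor of 1 TPM it was -0.19 and -0.18. Depth limits the mitochondrial enzymes most, with counts as low as 13 (Pars2, NIH3T3 at 7 h), and shares of a library say nothing of total output.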
